A study of Mus musculus with 2 samples.

Results

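Erythroid cells are cells of the red blood cell lineage, and a small number of them were captured together with the trigeminal ganglion, the sensory ganglion of the face. They were selected on their globin RNA: among cells with at least 150 genes and at most 25% of their unique molecular identifiers (UMIs, 1 per captured RNA molecule) in mitochondrial mt- genes, a member had at least 20% of its UMIs in Hba-a1, Hba-a2, Hbb-bs and Hbb-bt. This gave 100 cells of the 10356 kept. The control library held 31 of 6695 (0.463%, 95% Clopper-Pearson interval 0.315 to 0.657%) and the CFA library held 69 of 3661 (1.88%, 1.47 to 2.38%). Both libraries came from the right trigeminal ganglion of male C57BL/6 mice of 5 to 8 weeks. The CFA mice had received 20 µL of complete Freund's adjuvant, an inflammatory emulsion, in the right vibrissal pad 7 days before, and the control mice are labelled untreated, although the study's methods describe a saline injection. Each condition is 1 library, and how many mice each library pooled is not given in the sources used here, so no test between conditions was possible and all intervals below cover counting error only. The files held 48916096 UMIs in 7298 control cells and 22096268 UMIs in 4080 CFA cells.

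A maturing red cell fills its cytoplasm with hemoglobin, a tetramer of alpha and beta globin chains with heme, and then removes its nucleus and organelles. The reticulocyte that remains keeps cytoplasmic RNA for a short time and cannot make more, so that globin RNA dominates what is left. In adult mice these cells form in bone marrow and spleen and reach a ganglion in its blood.

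The 4 globins selected the cells, and Alas2 encodes the first and rate-limiting enzyme of erythroid heme synthesis. The RefSeq sequence (GRCm38.p6) of the 250 bases before the start of each gene is shown because these genes were high in the same cells. Entries were found for 5 of 5. The sequences run 5′ to 3′ on the strand of the gene, and capitals mark the letters of 4 promoter elements, searched on both strands. The CACCC box was searched as these letters and, on the other strand, as GGGTG. The CCAAT box was also read as ATTGG in reverse. The GATA element was searched by the letters GATAA, in reverse TTATC, and the TATA box by the letters TATAA, in reverse TTATA. Matches may overlap, as the TATA letters of the forward and reverse strand do in Alas2. The window of Hba-a1 lies at chr11:32283422-32283671 (+), that of Hbb-bs at chr7:103827929-103828178 (-), that of Hbb-bt at chr7:103813924-103814173 (-) and that of Alas2 at chrX:150547167-150547416 (+). The start is that of the promoter entry. Gene records with Ensembl identifiers begin inside these windows, at 32283511 for Hba-a1 and 103828096 for Hbb-bs.
Hba-a1: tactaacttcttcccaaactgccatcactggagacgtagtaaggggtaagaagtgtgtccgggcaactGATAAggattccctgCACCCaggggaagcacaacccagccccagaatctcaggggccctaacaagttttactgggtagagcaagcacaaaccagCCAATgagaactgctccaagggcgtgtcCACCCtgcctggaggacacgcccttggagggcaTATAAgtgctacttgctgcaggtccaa
Hbb-bs: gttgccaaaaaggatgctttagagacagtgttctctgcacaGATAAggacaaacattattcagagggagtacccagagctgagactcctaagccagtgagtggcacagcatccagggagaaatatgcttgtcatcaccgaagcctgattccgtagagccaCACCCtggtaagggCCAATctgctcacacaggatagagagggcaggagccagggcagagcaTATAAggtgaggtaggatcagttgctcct
Hbb-bt: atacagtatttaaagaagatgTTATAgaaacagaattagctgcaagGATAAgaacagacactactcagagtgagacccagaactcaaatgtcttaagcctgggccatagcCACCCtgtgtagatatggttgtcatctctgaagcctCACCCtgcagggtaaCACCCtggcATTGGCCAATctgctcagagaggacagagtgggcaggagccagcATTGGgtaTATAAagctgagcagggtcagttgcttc
Alas2: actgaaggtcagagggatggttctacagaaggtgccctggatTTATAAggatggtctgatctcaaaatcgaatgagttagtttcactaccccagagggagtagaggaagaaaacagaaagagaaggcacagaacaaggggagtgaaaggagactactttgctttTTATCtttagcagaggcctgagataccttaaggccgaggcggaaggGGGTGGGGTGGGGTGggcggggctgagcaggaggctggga

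All 3 globin windows printed held the 4 elements. GATAA began at position -182 in Hba-a1, -209 in Hbb-bs and -204 in Hbb-bt, and TATAA at -27, -29 and -28, counted back from the start of the gene. The window of Hba-a2 (chr11:32296242-32296491, +) is not printed because 247 of 247 aligned bases were identical to Hba-a1. The Alas2 window had no CCAAT. Among all 32851 promoter windows of this length, 52.0% held the CACCC letters, 33.8% CCAAT, 22.6% GATAA and 22.8% TATAA, so a match is a description and not evidence of binding. The sequences also set how far the chains can be told apart in 3′ counts. The coding sequences of Hba-a1 and Hba-a2 differed at 1 of 429 bases and all 74 aligned bases after the stop codon were identical, so their split is uncertain. Hbb-bs and Hbb-bt also differed at 1 of 444 coding bases but at 36 of the 129 aligned bases after the stop codon.

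Globin share and depth described how far each cell had become globin RNA. The median erythroid cell held 1030 UMIs, 307 of them not globin, and 177 genes in the control library. The CFA median was 1155 UMIs, 512 non-globin UMIs and 297 genes. The median globin share was 58.7% of UMIs (quartiles 42.1 and 70.8%) in control cells and 46.4% (33.9 and 65.6%) in CFA cells, and these shares are what selected the cells. There was no gap at the threshold: the nearest control cells had 20.3% inside and 19.8% outside, and the nearest CFA cells had 20.1% and 19.9%. Between 15 and 25% lay 8 control and 15 CFA cells. No cell number of an erythroid cell occurred in both files, although 27 numbers were shared among all cells.

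**Figure D1:**
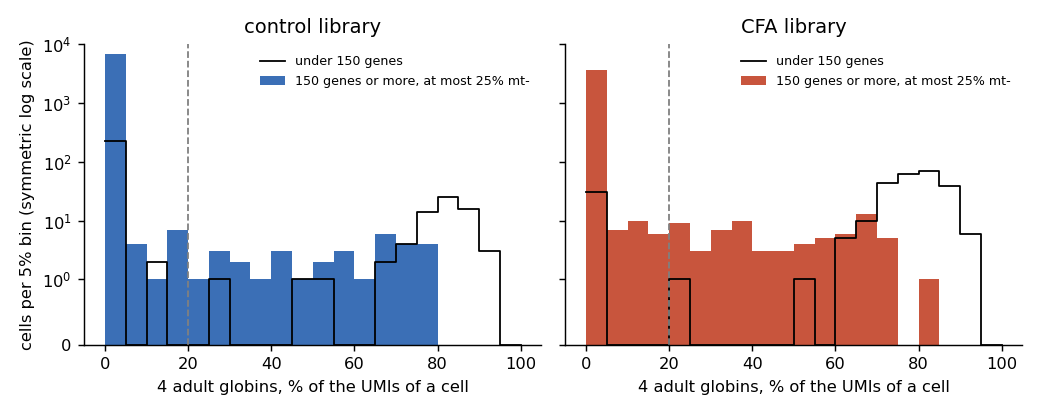
Histogram of the globin share of each cell in percent of its UMIs (x axis, bins of 5%) against the number of cells (y axis, symmetric log scale) in the control and CFA libraries. Filled bars are kept cells, the black line is cells under 150 genes, and the dashed line is the 20% threshold; most globin-rich cells of both libraries lie beyond it on the black line, near 80%.

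The gene minimum removed most globin-rich cells. Under 150 genes, 67 of 296 control cells (22.6%) and 238 of 269 CFA cells (88.5%) passed the same globin threshold, with median globin shares of 81.4% and 79.7% and medians of 82 and 85 genes. With no gene or mt- filter the globin-rich share was 98 of 7298 cells in the control library (1.34%, 1.09 to 1.63%) and 307 of 4080 in the CFA library (7.52%, 6.73 to 8.38%). The low-gene cells held 58.2% of all globin UMIs in the control file and 72.0% in the CFA file, against 30.6% and 23.3% in the 31 and 69 members.

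Alas2 was not part of the selection. An Alas2 UMI was found in 30 of 31 control members and 69 of 69 CFA members, against 0.293% of 5796 and 0.949% of 3162 other non-neurons (kept cells under the globin threshold with fewer than 10 UMIs in Tubb3, Snap25 and Stmn2). Its level was 13237 UMIs per 1000000 non-globin UMIs (counts per 1000000, CPM) in control members and 14905 CPM in CFA members, and 7.23 and 21.6 CPM in the other cells. The other non-neurons were deeper, with medians of 1297 and 1087 non-globin UMIs. No member reached 10 UMIs in the 3 neuron genes.

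Alpha chains made up 43.0% of the globin UMIs in control members (42.3 to 43.7%) and 49.0% in CFA members (48.5 to 49.5%). Hbb-bs was 44.7% of the 4 globins in control members and 35.1% in CFA members. Hbb-bt was 12.3% and 15.9%, or 21.6% and 31.1% of the beta chains. The low-gene globin cells gave a like difference between libraries, with alpha shares of 42.8% and 49.4% and Hbb-bt at 18.6% and 28.9% of beta. Globin RNA outside the members had nearly the same alpha share: other non-neurons had 45.1% and 49.1%, and a globin UMI was seen in 8.56% and 16.4% of them. Embryonic and other globins were near absent, with 6 and 12 UMIs, Hbq1a and Hbq1b leading.

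The non-globin RNA of members was compared with that of all other non-neurons, library by library. A gene was compared where the mean of its CPM in both classes reached what 10 UMIs are worth in the members (596 CPM for control and 196 CPM for CFA members), which left 191 genes for control and 831 for CFA cells, and called at 4-fold. The rule read the same cells, so the ratios are descriptions with no test. A gene scarce in 1 class could reach this level only by being high in the other, which fixes its call in advance. In the control library 37 genes were at least 4-fold higher (19.4%) and 2 were lower (1.05%). In the CFA library 191 were higher (23%) and 44 lower (5.29%). Over the 190 genes compared in both, 36 were higher in both (18.9%) and 1, Trf, was lower in both (0.526%). Of the 36, 20 belonged to the erythroid or iron lists and 0 to the 4 glial lists.

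**Figure D2:**
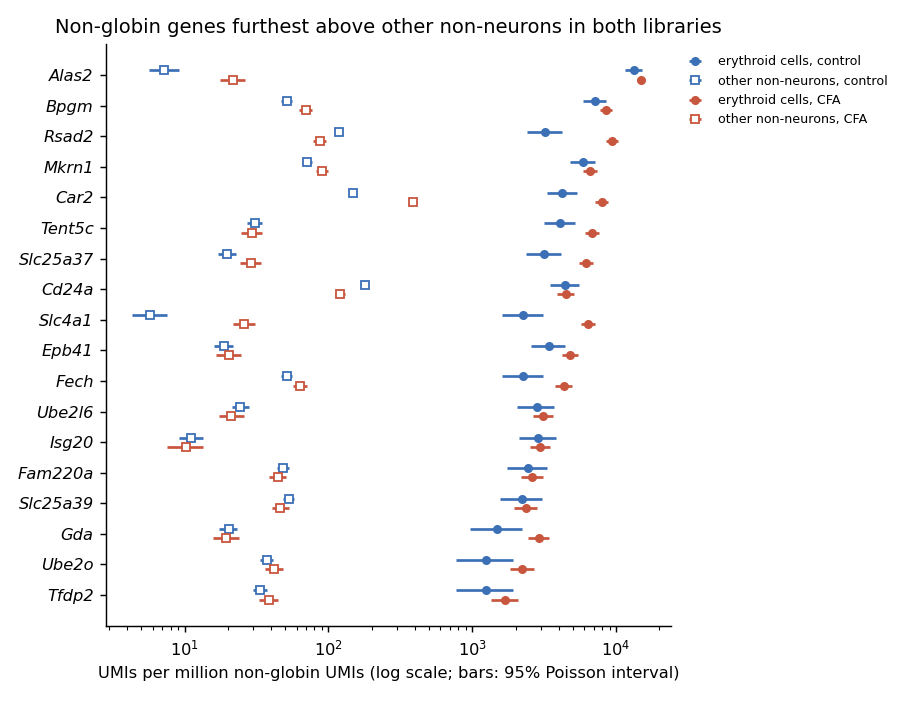
Level in CPM (x axis, log scale) of 18 of the 20 non-globin genes furthest above other non-neurons in both libraries (y axis), in erythroid cells (filled circles) and other non-neurons (open squares) of the control (blue) and CFA (red) libraries, with 95% Poisson intervals. Every gene shown lies at 1252 CPM or more in erythroid cells and at 386 CPM or less in the other cells.

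Genes of heme synthesis were high together. Of 14 listed genes, 3 could be compared in the control library and all 3 were higher, and 6 of 7 were higher in the CFA library. Fech, which inserts iron into the porphyrin ring, stood at 2266 CPM (38 UMIs) in control and 4340 CPM (221 UMIs) in CFA members, and 51.2 and 63.6 CPM in the other cells. Slc25a39, a mitochondrial carrier, stood at 2206 and 2357 CPM. Cpox was the compared gene below 4-fold, at 668 CPM in CFA members and 290 CPM in the other cells. From the iron list, Slc25a37, mitoferrin, which brings iron into the mitochondrion, stood at 3160 and 6166 CPM against 19.8 and 28.8 CPM. That list had 1 higher and 1 lower of 4 compared genes for control cells, and 4 higher and 1 lower of 7 for CFA cells. Over all genes compared, 19.4% were higher and 1.05% lower for control cells, and 23% and 5.29% for CFA cells. The counts of the heme list above and of the lists that follow stand beside these same shares. Listed genes scarce in the other cells were compared only where high in members, so these counts follow largely from that filter.

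Membrane and skeleton genes were also higher in members. In the control library 3 of 4 compared genes were higher, and in the CFA library 15 of 17. Slc4a1, the anion exchanger band 3, had 38 and 326 UMIs, or 2266 and 6402 CPM, against 5.74 and 26.1 CPM in the other cells. Of these UMIs, 30 lay in 1 control cell and 194 in 9 CFA cells that carried proliferation RNA (below). The other 30 control members stood at 527 CPM and the other 60 CFA members at 3413 CPM. Epb41, protein 4.1 of the membrane skeleton, stood at 3399 and 4792 CPM. The 2 compared CFA genes under 4-fold were Bsg and Cd47, which many cell types express.

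Enzymes and redox genes were called in 6 of 6 and 10 of 12 cases. Gpx1, glutathione peroxidase, stood at 8884 and 14355 CPM against 655 and 468 CPM in the other cells. Bpgm, which makes the 2,3-bisphosphoglycerate that lowers the oxygen affinity of hemoglobin, stood at 7155 CPM (25 of 31 cells) and 8464 CPM (61 of 69 cells). Car2, carbonic anhydrase, stood at 4234 and 7934 CPM. Prdx2, a peroxiredoxin, had a ratio of 3.66 and 3.85 on the log2 scale.

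Genes of organelle clearance and ubiquitin transfer were higher in 7 of 9 and 12 of 16 cases. They included Mkrn1, a ubiquitin ligase (5903 and 6618 CPM), Ube2l6, a ubiquitin-like conjugating enzyme (2802 and 3103 CPM), Ube2o, which marks ribosomal proteins for removal in reticulocytes (1252 and 2219 CPM), and Bnip3l, the mitophagy receptor Nix (1431 and 2533 CPM). The 5 erythroid lists together held 9.58% of the non-globin UMIs of control members and 15.3% of those of CFA members, against 1.13% and 1.03% in the other cells. These summed shares use every listed gene. Over all 5 lists, with 91 genes in the files, 19 of 22 and 46 of 55 compared genes were called higher and 0 lower. Their median log2 ratios were 5.42 and 4.80, beside 0.044 and -0.23 over all genes compared. Genes scarce in the other cells entered only where high in members, so these counts and medians follow largely from the filter.

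Of the 36 genes higher in both libraries, 16 were in neither the erythroid nor the iron lists. The most abundant was Pabpc1, the cytoplasmic poly(A)-binding protein, at 12879 and 18420 CPM against 711 and 638 CPM. Rsad2, the interferon-induced antiviral protein viperin, stood at 3220 and 9387 CPM against 118 and 86.9 CPM. Of the 25-gene interferon list only 2 could be compared in both libraries, and Rsad2 was higher in both, beside 18.9% of all genes compared in both. Cd24a, Adipor1, Gda, Tfdp2 and Ucp2 were among the rest. The 10 genes furthest below the other cells were Dcn, Trf, Apod, Fos, Cst3, Apoe, B2m, Dbi, Selenop and Actb. Trf, transferrin, stood at 179 CPM (3 UMIs) and 295 CPM (15 UMIs) against 1172 and 2092 CPM, and Fos, an immediate early gene, at 2564 and 2337 CPM against 6285 and 6600 CPM. Malat1, a nuclear RNA, stood at 3160 and 3005 CPM, against 3955 and 3022 CPM in the other cells.

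Cells differed widely among themselves. In the 15 control and 25 CFA cells with at least 60% globin, erythroid lists held 18.8% and 23.5% of non-globin UMIs, in medians of only 252 and 271 non-globin UMIs a cell. In the 7 control and 29 CFA cells with 20 to 40% globin they held 5.97% and 13.4%, with medians of 949 and 1239 UMIs. The per-cell share of the erythroid lists ran from 0.962 to 28.3% in control cells and from 1.24 to 37.7% in CFA cells. More UMIs fell in the glial lists than in the erythroid lists in 12 of 31 and 15 of 69 members.

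**Figure D3:**
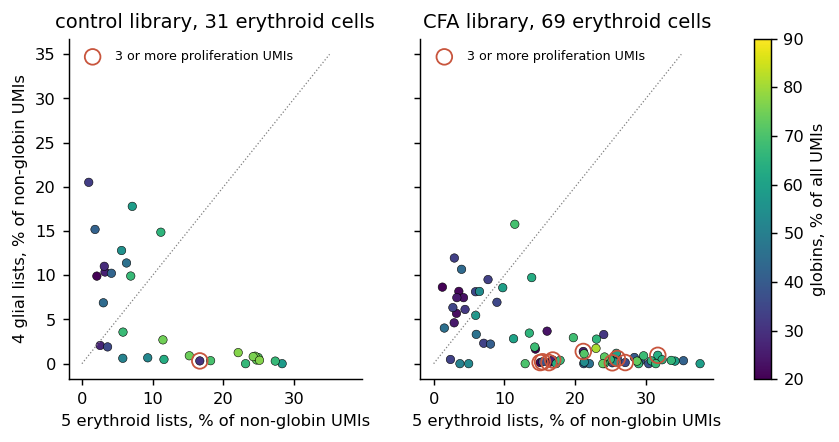
Each point is 1 erythroid cell, placed by the percent of its non-globin UMIs in the 5 erythroid lists (x axis) and in the 4 glial lists (y axis) for the control and CFA libraries, and coloured by globin share. The dotted line marks equal shares, above which lie 12 control and 15 CFA cells, and red rings mark the 1 control and 9 CFA cells with at least 3 proliferation UMIs, all below the line.

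A few members carried RNA of proliferation genes. At least 3 UMIs of the 12-gene proliferation list were found in 1 of 31 control members (3.23%, 0.0816 to 16.7%) and 9 of 69 CFA members (13.0%, 6.14 to 23.3%), against 1.07% and 1.42% of other non-neurons. Thinned to 100 non-globin UMIs a cell, 1 control and 15 CFA members kept at least 1 such UMI (3.23% and 21.7%), against 1.09% and 1.20% of other non-neurons. The control cell had 30.4% globin, 851 genes and 49 proliferation UMIs. It held all 15 control UMIs of Mki67, a marker of dividing cells, all 13 of Hemgn, a nuclear protein of erythroid precursors, all 4 of Rhd and all 5 of Ermap, both blood group proteins, and 30 of the 38 of Slc4a1.

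The 9 CFA cells held 92 of 96 UMIs of Mki67, 84 of 88 of Hemgn, 31 of 33 of Top2a, the topoisomerase that untangles replicated DNA, and 194 of 326 of Slc4a1. Mki67 is on the proliferation list, so its place in these cells follows from how they were chosen. Of the 9, 3 lay at the threshold of 3 UMIs and 1 had 6, and 1 of those at the threshold had 63.7% globin, 193 genes and no UMI of Mki67, Top2a or Hemgn. The 4 with the most proliferation UMIs had 53 to 97 each, with 1403 to 2516 non-globin UMIs and 792 to 1114 genes. The erythroid transcription factors Gata1 and Klf1 had 7 and 13 UMIs in the CFA members and 0 in the control members, where the floor of 3 UMIs is 179 CPM and the 95% Poisson interval of a count of 0 ends at 219.96 CPM. All 5 compared proliferation genes of the CFA library were at least 4-fold higher than in other non-neurons, beside 23% of all genes compared there. The 12 listed genes together stood at 268 CPM in those other cells and 7168 CPM in CFA members. Genes scarce in the other cells were compared only where high in members, so these calls follow largely from that filter. No proliferation gene reached the comparison in the control library.

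Glial RNA was present in members in an uneven way. The myelinating Schwann cell list held 4.50% of the non-globin UMIs of control members (4.19 to 4.82%) and 2.22% of those of CFA members (2.09 to 2.35%), against 4.55% and 4.65% in the other non-neurons. As a background, 3 gates that should lack this RNA were read: cells with at least 1% of UMIs in macrophage (C1qa, C1qb, C1qc), endothelial (Flt1, Cldn5, Pecam1) or fibroblast (Dcn, Col1a1, Col1a2) genes. These held 0.379, 0.236 and 0.508% of UMIs in the control library and 0.296, 0.303 and 0.369% in the CFA library. The satellite glial list stood otherwise against the same gates: control members held 1.16%, between the lowest and the highest of 1.55, 0.812 and 1.04%, and CFA members held 0.607%, below all of 1.05, 0.857 and 1.20%. The gates can express some genes of that list, and Fabp7 and Dbi lay above every gate (below). The gates were deeper than the members, with medians of 1246 to 1714.5 non-globin UMIs a cell.

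The excess of the myelinating Schwann cell list over the gates lay mostly in some of the cells. The 12 control and 24 CFA members with at least 10 UMIs of that list held 95.2% and 91.8% of its UMIs. The other 19 and 45 members held 0.428% (0.300 to 0.592%) and 0.342% (0.276 to 0.419%), a share chosen low by that split and inside the range of the gates in both libraries. The gate shares cover all gate cells, with no such split, so the 2 are not alike. The median member had 0.844% and 0.593%. Medians of the macrophage, endothelial and fibroblast gates were lower, at 0.158, 0.192 and 0.127% for control and 0.149, 0.254 and 0.121% for CFA cells. The highest 95th percentile of any gate was 2.72% and 1.93%, and 11 of 31 and 22 of 69 members lay above it. Of the 15 control cells with at least 60% globin, 2 lay above it. In the 25 CFA cells of that range the list held 1.58% of non-globin UMIs. The CFA cell with 69.3% globin had 15.8% in the 4 glial lists.

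Gene by gene, the myelin genes Mbp, Pmp22 and Mobp were above all gates and some other glial genes were not. Mbp, myelin basic protein, stood at 15622 and 6029 CPM against at most 2424 and 1437 CPM. Mobp, an oligodendrocyte myelin gene, stood at 3220 CPM (54 UMIs) and 766 CPM (39 UMIs) against at most 199 and 294 CPM. It led the oligodendrocyte-like list, which had 65 and 74 UMIs in all and 0 of Mog, Opalin and Hapln2. That list held 0.388% and 0.145% of non-globin UMIs, against 0.227% and 0.405% in the other non-neurons. At or below the highest gate were 3 of 14 glial genes with at least 10 UMIs in the control library, Mal, Apoe and Glul, and 7 of 22 in the CFA library, among them the same 3 with Egr2, Sparcl1 and Ptn. The gates can express some of these themselves, as macrophages do Apoe. The genes of the satellite glial list were split: Fabp7, a fatty acid binding protein of glia, was above all gates at 1073 and 452 CPM against at most 282 and 63.9 CPM. Dbi was above them too, at 1610 and 687 CPM against at most 531 and 307 CPM, with 21 of 27 and 18 of 35 UMIs in 1 cell of each library. Glul, glutamine synthetase, was below all 3 gates in the CFA library (491 against 1183 to 2284 CPM). The ratio of members to all kept cells ran from 1.90 to 25.5 over the 14 control genes and from 0.896 to 6.32 over the 22 CFA genes, so the glial UMIs did not keep 1 ratio. Whether they came from free RNA, from debris or from a glial cell captured with the red cell was not tested.

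**Figure D4:**
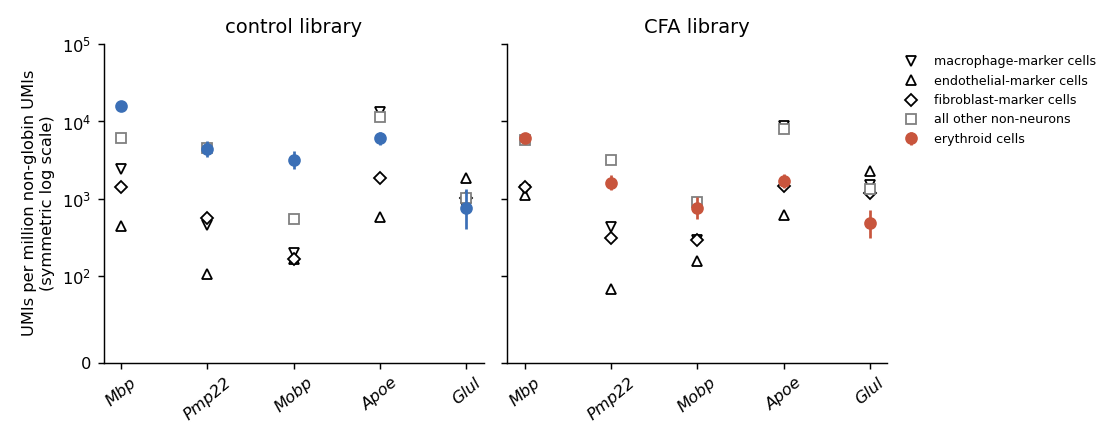
Level of 5 glial genes (x axis) in CPM (y axis, symmetric log scale) in the control and CFA libraries, in erythroid cells (filled, 95% Poisson interval), in the 3 marker gates (triangles and diamonds) and in all other non-neurons (squares). Mbp, Pmp22 and Mobp lie above every gate in the erythroid cells, while Apoe and Glul do not.

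RNA of other blood cells was scarce. The platelet list had 0 control and 3 CFA UMIs. The lymphocyte list had 1 and 0 UMIs and the macrophage list 11 and 1. The neutrophil list had 35 control UMIs and 1 CFA UMI, and 16 of the 35 were S100a8, all in 1 cell with 41.7% globin that also held 6 UMIs of S100a9. Fibroblast RNA came largely from 1 cell in each library: of 86 and 168 UMIs of Apod, 83 and 149 lay in 1 cell, which also held 18 of 21 and 63 of 68 UMIs of Dcn. The control cell held 44 of the 46 control UMIs of Ptgds. At least 10 UMIs in the list of some other cell type were found in 16 of 31 and 26 of 69 members.

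Between the libraries, CFA members were set against control members gene by gene, over 220 genes whose mean CPM in both libraries reached 596 CPM, worth 10 control UMIs, with 2-fold as the threshold and no test. Of these, 40 were higher in the CFA library (18.2%) and 25 lower (11.4%), around a median log2 ratio of 0.17. These counts depend on which cells are members: they were 98 and 67 at a threshold of 10% globin, 11 and 7 at 50%, and 5 and 5 without members that held 10 UMIs of another cell type. Among them were 13 higher and 0 lower of the 40 compared genes of the erythroid lists, with a median of 0.72, and 1 higher and 7 lower of the 12 compared glial genes, with a median of -1.21. The highest ratios among the 220 were those of Tmcc2 and Xpo7.

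Tmcc2, a transmembrane protein abundant in late erythroblasts, had 7 control UMIs in 3 of 31 cells and 328 CFA UMIs in 22 of 69 cells. The log2 ratio was 3.95 (2.89 to 5.27), against 0.73 in other non-neurons. Xpo7, a nuclear export receptor used in erythroid nuclear condensation, had 6 UMIs in 3 cells and 248 in 20 cells, with a log2 ratio of 3.77 (2.62 to 5.23). Most of these UMIs lay in cells with 20 to 40% globin, 304 of 328 and 226 of 248, and in cells with at least 60% globin Tmcc2 had 1 and 3 UMIs and Xpo7 3 and 2. Eif2ak1, the heme-regulated kinase of translation, had 1 and 57 UMIs (4.23, 1.69 to 9.56; under the level compared). Slc4a1 had a log2 ratio of 1.50 (1.01 to 2.02), and Alas2 one of 0.17 (-0.046 to 0.39). The direction of 3 of these ratios turned among cells rich in globin: Slc4a1 stood at -0.57 (6 and 8 UMIs) at 60% globin or more, and Tmcc2 and Xpo7 at -1.27 and -1.85 with a threshold of 50%.

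The cells with proliferation RNA did not hold all of the difference. Without the 1 control and 9 CFA cells, the log2 ratio of Tmcc2 was 4.23 (4 and 191 UMIs) and that of Xpo7 3.47 (6 and 169 UMIs). Slc4a1 stood at 2.69 (8 and 132 UMIs), since 30 of its 38 control UMIs left with 1 cell. Mki67 kept 0 and 4 UMIs, but it is on the list that chose these cells, so its loss was set by that choice. Leaving out these cells was chosen after seeing the data.

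Rsad2 was higher in CFA members at 1.54 on the log2 scale (1.14 to 1.98; 54 and 478 UMIs), while it was at -0.44 in the other non-neurons. Within cells with at least 60% globin its log2 ratio was 0.49 (-0.041 to 1.04). In cells with 20 to 40% globin it had 1 control and 274 CFA UMIs. Isg15, another interferon-induced gene, had 5 and 48 UMIs (1.66, 0.34 to 3.35) but stood at -1.15 in the other non-neurons. B2m, the light chain of class I histocompatibility molecules, was lower in both classes, at -1.20 and -1.19.

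**Figure D5:**
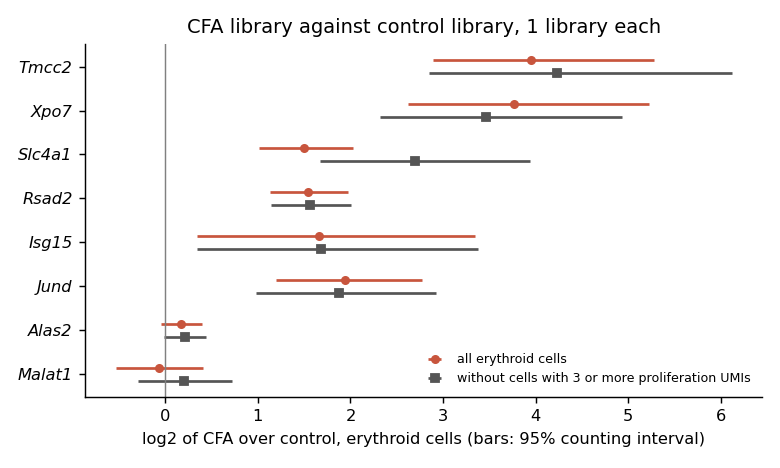
The log2 ratio of CFA over control CPM (x axis) of 8 genes in erythroid cells (y axis), for all members (circles) and without the 1 control and 9 CFA cells with at least 3 proliferation UMIs (squares), with 95% counting intervals; 1 library stands behind each condition. Tmcc2 lies at 3.95 and 4.23 and Xpo7 at 3.77 and 3.47, and the interval of Malat1 over all members, -0.53 to 0.41, spans 0.

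Several glial genes were lower in CFA members. Mbp had a log2 ratio of -1.37 (-1.62 to -1.13; 262 and 307 UMIs), Pmp22 of -1.46, Mobp of -2.07 and Apoe of -1.83, of which 88 of 102 control UMIs and 67 of 87 CFA UMIs lay in 1 cell each. Within cells with at least 60% globin the myelinating Schwann cell list held 1.74% of control and 1.58% of CFA UMIs (log2 ratio -0.13, -0.57 to 0.31), against 6.98% and 1.83% at 40 to 60% globin and 4.07% and 2.44% at 20 to 40%. The lowest ratios were those of Ptgds at -6.13 and Calca at -3.12, with 46 and 20 control UMIs. Of the 46, 44 lay in 1 cell, and Calca stood at 0.11 among cells with at least 300 genes and at most 10% mt- UMIs. The share of cells in each range of globin also differed, since 7 of 31 control but 29 of 69 CFA members had under 40% globin, and its part in these ratios was not tested.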

How the data were processed

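Single cells of the right trigeminal ganglion were captured on the BD Rhapsody platform, 1 control and 1 CFA library. The authors deposited a matrix of UMI counts per gene and cell for each library, unnormalized, with gene symbols and cell numbers. The submitters' notes name fastp and the GRCm38 genome, and the aligner and annotation release are not given in the sources used here. UMIs are 3′ counts, 1 per molecule, and were not scaled by length. Whether red cells were lysed is also not given, and no doublet caller was run.

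Cells were summed by class and library in Python 3.11.15 (NumPy 2.4.6, pandas 2.3.3, SciPy 1.17.1), and CPM was taken over non-globin UMIs. In the members 1 UMI is worth 59.6 CPM in the control and 19.6 CPM in the CFA library. Shares have Clopper-Pearson, levels exact Poisson and ratios conditional exact binomial 95% intervals, and a class with 0 UMIs is set to a floor of 3 UMIs over the class. With 1 library per condition no p-value was computed. Named genes were the globins, Alas2, the 20 highest and 10 lowest by the smaller interval bound of both libraries in erythroid over other cells, the 10 most abundant, the 5 highest and 5 lowest ratios of CFA over control among genes with at least 20 UMIs, and members of 26 gene lists. Members, lists and ranges of globin share were chosen with earlier results of these data known. The interval code was tested on simulated data: over 1477 genes with at least 10 counts in the CFA over control comparison, 97.7% of intervals held the true ratio. Alternatives changed the globin threshold, cell filter, doublet rule, totals, weights, depth, count minimum, fold and centring. Some genes that the rule names are not reported here.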

Additional observations from a re-analysis of the deposited data

Results flagged for a closer look

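Isg15 differed in direction between classes of cell: CFA over control was 1.66 on the log2 scale in erythroid cells (5 and 48 UMIs) and -1.15 in other non-neurons (1738 and 393 UMIs). It was found by reading all compared genes for a 2-fold change in opposite directions with both intervals away from 0, and the difference between the classes was not tested.

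The globin-rich cells under 150 genes, 67 of the control and 238 of the CFA file, stand outside the comparisons above. They hold more of each file's globin UMIs than the members do, and in each library 1 of them was also over the mt- limit.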

How the results depend on the processing

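Each condition is 1 library, so none of these settings measures variation between animals. No paired analysis was possible because each group has 1 library. Control values rest on 16771 non-globin UMIs, and genes with few control UMIs carry wide intervals. Of 140 recomputed summary values, 77 stayed within the interval or within 1.5 times of the value reported. Lifting the mt- limit, leaving mt- genes out of totals and centring on the median moved none of them. Below, the share of members is in percent of kept cells, glial ratios are log2 over other non-neurons (-0.27 control and -1.17 CFA as reported), and unless a cause follows from the setting's construction it was not tested.

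With a 10% globin threshold, 59 genes were higher and 6 lower in both libraries and 98 and 67 genes were 2-fold higher and lower in CFA members. With 50%, members were 0.299% and 0.929%, the CFA median globin share 65.7%, glial ratios -1.15 and -1.78, erythroid list genes called in the CFA library 22, genes lower in both 6, and genes 2-fold higher and lower in CFA members 11 and 7. There Tmcc2 (-1.27), Xpo7 (-1.85) and Dbi (0.73) changed direction, on few UMIs. At 300 genes and 10% mt-, members were 0.172% and 1.14%, median globin shares 35.8% and 34.3%, control alpha share 40.2%, erythroid list genes called in the control library 8, glial ratios 0.026 and -1.01, genes higher and lower in both 12 and 0, and Calca turned to 0.11. With no gene minimum, members were 1.43% and 7.84%, median globin shares 79.0% and 76.8%, glial ratios -0.48 and -1.29, and genes higher and lower in both 61 and 3. Without members that held 10 UMIs of another type, they were 0.224% and 1.17%, median globin shares 71.9% and 60.3%, CFA alpha share 48.3%, genes lower in both 9, genes 2-fold higher and lower in CFA members 5 and 5, and glial ratios, lowered by that choice itself, -3.50 and -3.84.

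With every cell weighted equally, glial ratios were -0.53 and -1.33, genes lower in both 3 and genes 2-fold higher in CFA members 26. Thinned to 100 UMIs, which leaves fewer genes to compare, erythroid list genes called were 6 and 17, glial ratios -0.47 and -1.44, genes higher and lower in both 7 and 0, and genes 2-fold higher and lower in CFA members 3 and 4. Against other non-neurons of matched depth, the control glial ratio was -0.41 and genes lower in both 0. A count minimum of 20 gave 11 control erythroid list genes, 18 and 0 genes higher and lower in both, and 15 and 11 in CFA members, from fewer genes compared. At 2-fold, 18 genes were lower in both. Chosen after seeing the data, leaving out cells with 3 proliferation UMIs moved the glial ratios to -0.13 and -0.82. Within ranges of globin share, CFA over control changed direction for Apoe (2.23) and Dbi (0.97) at 40 to 60%, and for Slc4a1 (-0.57), Tac1 (0.010) and Xpo7 (-1.57) at 60% or more. Of 1133 values of named genes against other non-neurons, 0 changed direction.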

Other observations

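Neuronal RNA was slight in the members but not at 0. The 14-gene neuron list had 96 control UMIs (0.572% of non-globin UMIs, 0.464 to 0.699%) and 97 CFA UMIs (0.190%, 0.154 to 0.232%), against 0.194% and 0.115% in other non-neurons. Calca, which encodes the neuropeptide CGRP, had 20 UMIs in 9 of 31 control cells, 9 of them in 1 cell, and 7 UMIs in 7 of 69 CFA cells. Tac1, the substance P precursor, had 13 and 7 UMIs.

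The immediate early and heat shock lists, whose genes tissue dissociation commonly induces, held lower shares than in other non-neurons. The first held 1.41% and 1.66% of non-globin UMIs against 2.27% and 2.69%, and 0 of 10 and 0 of 15 compared genes were 4-fold higher, beside 19.4% and 23% of all genes compared. Jund was its most abundant member in the CFA library, with 186 UMIs in 41 of 69 cells, and had 16 in the control library (log2 ratio of CFA over control 1.94, 1.20 to 2.77). The heat shock list held 0.483% and 0.361%, against 0.679% and 0.550%. The 13 listed mitochondrially encoded RNAs held 3.86% and 3.14%, against 4.64% and 4.92%. Over all mt- genes the control order was the other way, with a median of 7.59% of non-globin UMIs per control member against 6.28% in other non-neurons, and 4.53% against 5.76% in the CFA library. The ribosomal mt-Rnr2 stood at 22598 and 12450 CPM, against 16738 and 11749 CPM. Among iron genes, Tfrc, the transferrin receptor, had 6 UMIs in 4 control cells and 63 in 17 CFA cells, 57 of them in cells with 20 to 40% globin, while Fth1, ferritin heavy chain, was at 9898 and 8503 CPM against 6791 and 7628 CPM elsewhere.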
